A study of Mus musculus with 93 samples.

Results

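A set of 9 genes of simple epithelia was followed through the ovary of wild type and estrogen receptor beta knockout mice, in oocytes and in granulosa cells, which line the follicle around them. They were Krt7, Krt8, Krt18, Krt19 and Krt20, which encode keratins, Tspan8, a tetraspanin of the plasma membrane, Upk3b and Upk1b, which encode uroplakins, and Msln, which encodes mesothelin. These 9 genes, of 24047 with a row in any of the tables, were chosen by their measured differences between knockout and wild type in granulosa cells, or in 7 week oocytes, in earlier results of the same data. For those contrasts the values below are therefore descriptions without a test. The values below show how far the members vary together.

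Keratin filaments are obligate pairs of a type II and a type I chain. Krt7 and Krt8 encode type II chains, Krt18, Krt19 and Krt20 type I chains, and Krt8 with Krt18 forms the basic pair of simple epithelia, which granulosa cells also make. Krt7, Krt19, Upk3b, Upk1b and Msln are known from mesothelium and from the epithelium that covers the ovary, Krt20 from intestinal and bladder epithelium, and Tspan8 from epithelia and their tumours.

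For granulosa cells there were 14 libraries of 4 week old mice (7 of each genotype), 10 of 7 week old mice (5 of each) and 18 of 6 month old mice (12 wild type, 6 knockout). For oocytes the wild type libraries were 12, 5 and 11 at these ages, and the knockout libraries 7, 12 and 4. All came from ovary. The labels call the mice wild type or knock-out and give neither the allele nor the strain, the number of cells per library or the animals behind them, and the study's title names estrogen receptor beta, which Esr2 encodes. Library totals were between 702726 and 6469419 counts in granulosa cells and between 1814958 and 7751953 in oocytes. Esr2 was between 5.69 and 39.6 counts per 1000000 counts of the library (CPM) in the 24 wild type granulosa libraries and had no count in any of the 18 knockout ones, where a count of 0 allows up to 0.47 to 4.2 CPM per library (3 counts, counting error only). In oocytes it was between 39.3 and 112 CPM in wild type, with 1 count in 1 of 7 knockout libraries at 4 weeks, 4 counts in 2 of 12 at 7 weeks and none in the 4 at 6 months. The 6 of 13 listed granulosa genes with a row in all tables (Cyp19a1, Gja1, Inha, Inhba, Kitl and Nr5a2) summed to between 1920.0 and 6999 CPM in granulosa libraries and to between 44.9 and 378 CPM in oocyte libraries.

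The upstream windows of 4 members are shown because these genes carry the clearest patterns below: Krt8 and Krt18 lie next to each other and varied together, whereas Krt20 and Tspan8 moved in opposite directions. Each window is the 250 bases before the RefSeq start of the gene on GRCm38.p6, 5′ to 3′ on the gene's own strand, and capitals mark the TATA box and, on either strand, the core site of nuclear receptors, GGTCA. The GENCODE gene spans given below start elsewhere. The window of Tspan8 lies inside its span, and those of Krt8 and Krt18 overlap theirs in part.
Krt8, chr15:102004343-102004592, minus strand: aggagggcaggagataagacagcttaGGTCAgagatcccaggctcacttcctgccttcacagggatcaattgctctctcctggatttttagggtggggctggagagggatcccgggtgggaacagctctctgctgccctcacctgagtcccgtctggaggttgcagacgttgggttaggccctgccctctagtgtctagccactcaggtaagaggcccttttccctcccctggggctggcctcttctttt
Krt18, chr15:102027966-102028215, plus strand: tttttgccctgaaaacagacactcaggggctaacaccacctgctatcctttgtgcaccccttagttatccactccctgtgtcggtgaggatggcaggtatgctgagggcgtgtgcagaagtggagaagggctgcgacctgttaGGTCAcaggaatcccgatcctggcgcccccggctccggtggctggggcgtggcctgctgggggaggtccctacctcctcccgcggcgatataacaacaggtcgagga
Krt20, chr11:99438154-99438403, minus strand: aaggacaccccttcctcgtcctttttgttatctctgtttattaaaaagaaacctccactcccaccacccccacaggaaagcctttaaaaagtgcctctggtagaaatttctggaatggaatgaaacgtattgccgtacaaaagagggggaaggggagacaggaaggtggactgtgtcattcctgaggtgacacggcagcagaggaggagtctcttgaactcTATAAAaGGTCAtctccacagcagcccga
Tspan8, chr10:115817034-115817283, plus strand: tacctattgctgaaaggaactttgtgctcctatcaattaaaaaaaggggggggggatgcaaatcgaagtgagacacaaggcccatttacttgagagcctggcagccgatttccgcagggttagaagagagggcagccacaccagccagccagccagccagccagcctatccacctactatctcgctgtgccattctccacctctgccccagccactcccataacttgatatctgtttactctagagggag
Windows for 6 of the 9 members were matched by symbol, the other two being those of Krt7 and Upk3b, and Krt19, Upk1b and Msln had none in the table. On either strand, the full estrogen response element GGTCANNNTGACC was found in none of the 6, and 0.0639% of 32851 windows of the same length hold it. The core site, which is part of the full element, was found once in Krt8 (position -224 from the start), Krt18 (-107), Krt20 (-22) and Upk3b (-154), and 35.2% of all windows hold one. The TATA box (TATAAA) was found in Krt20 alone of the 6, at -29, against 12.4% of all windows, and GGGCGG 4 times in Krt7, against 32.7%. These are matches of letters and no record of binding.

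Krt8 and Krt18 are neighbours on chromosome 15 of GRCm38, on opposite strands, with 23697 bases between them. Krt8 spans chr15:101996698-102004482, and Krt18 chr15:102028180-102032027. Krt7 lies on the same chromosome at chr15:101411043-101430313. Krt19 (chr11:100140810-100148665) and Krt20 (chr11:99428403-99438150) lie in the type I keratin cluster. Tspan8 is at chr10:115816832-115849893, Upk3b at chr5:136038496-136046487, Upk1b at chr16:38773184-38800328 and Msln at chr17:25748613-25754378. Values are summed over each whole gene. Krt7, Krt8 and Tspan8 overlap other annotated genes (Gm671, Gm36026 and 4930422I22Rik), and the strand setting of the counting is not stated.

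**Figure D1:**
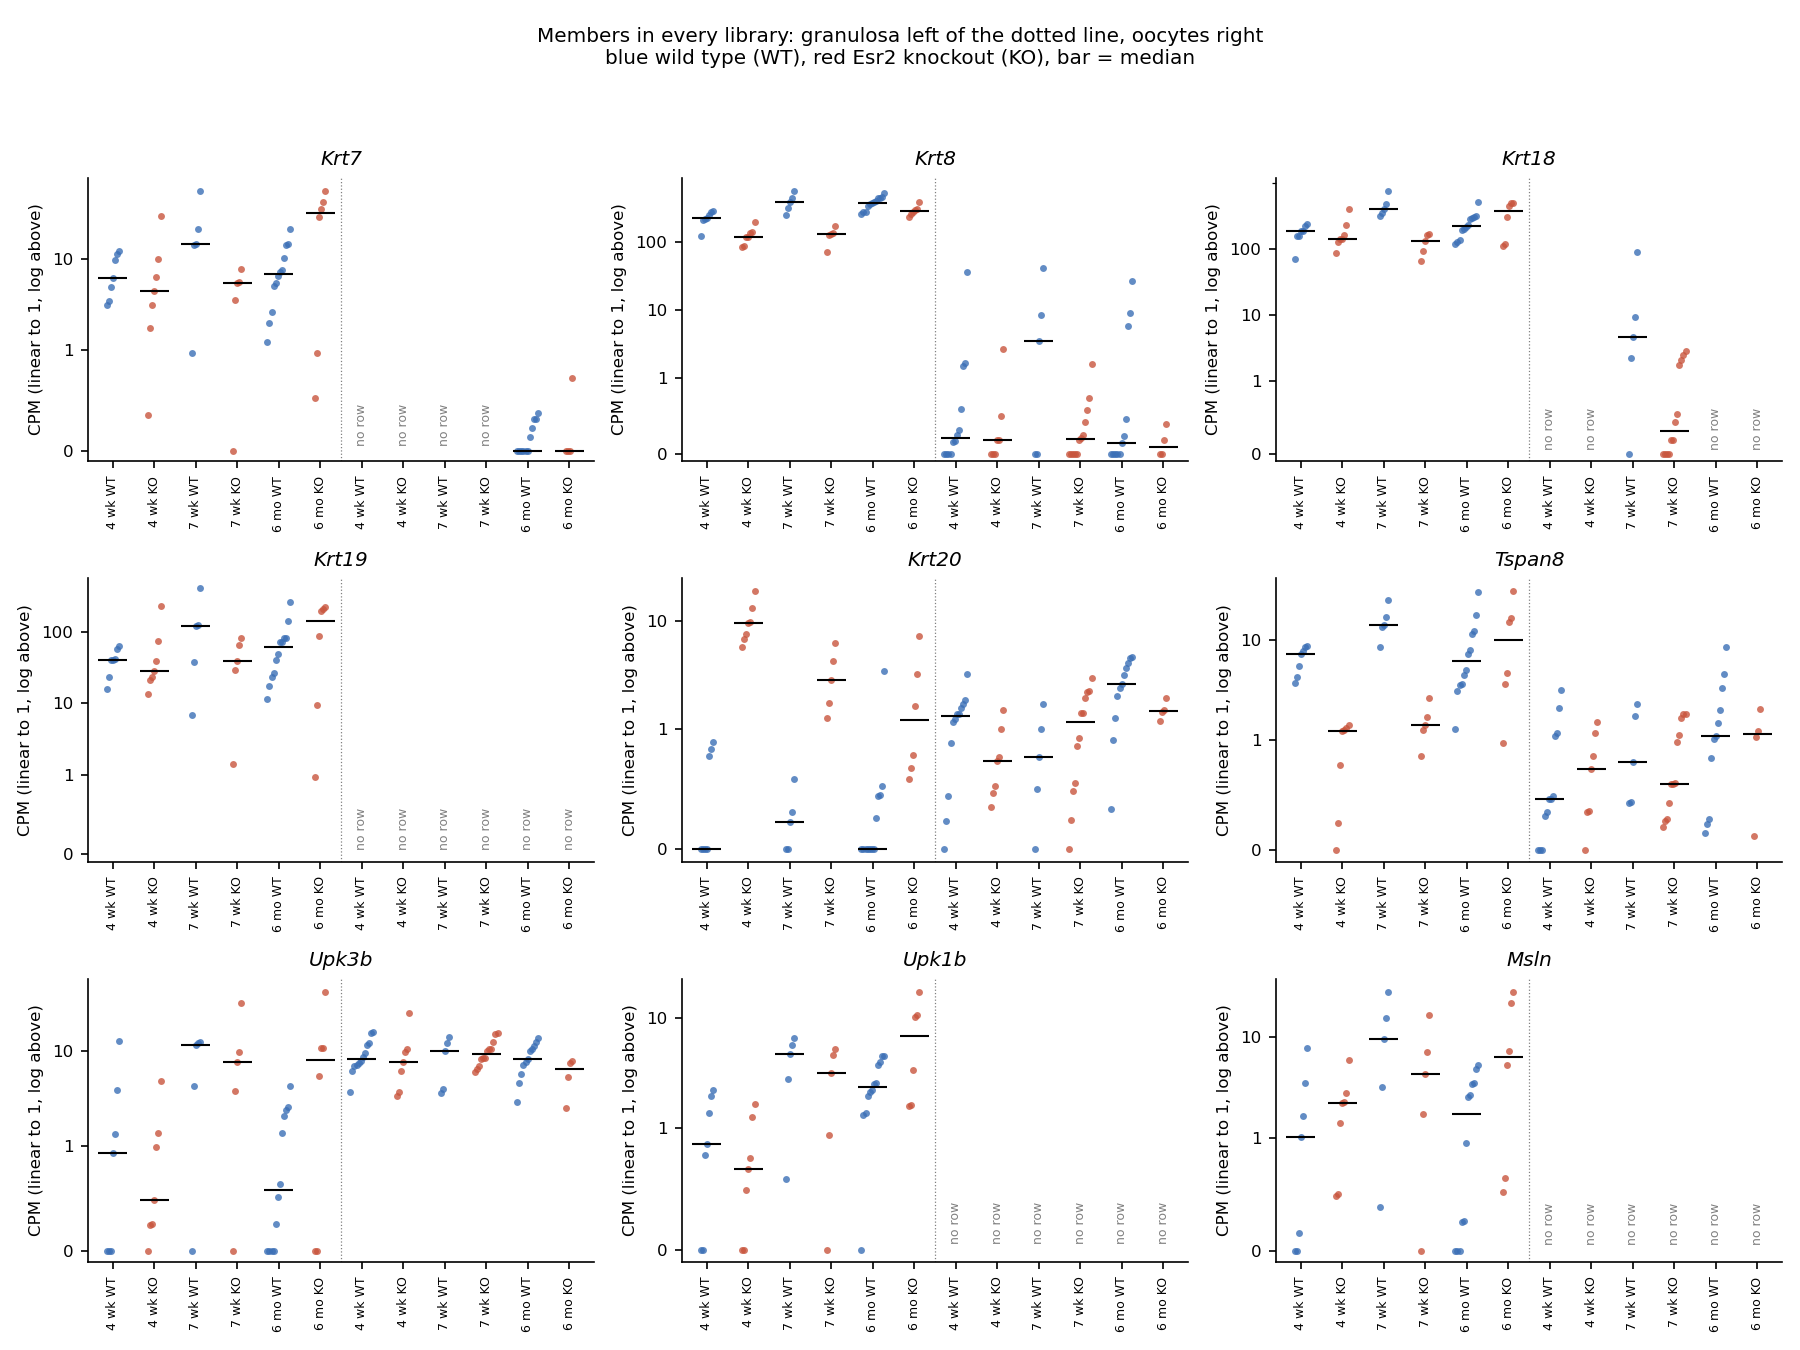
CPM of each member in every library (y axis, linear up to 1 and logarithmic above) by age and genotype, granulosa cells left and oocytes right of the dotted line, with points for libraries and bars for group medians. Krt20 and Tspan8 separate the granulosa genotypes at 4 and 7 weeks in opposite directions, and Upk3b is the member with counts in all 51 oocyte libraries.

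Krt20 and Tspan8 showed the widest separation of the genotypes in granulosa cells at the 2 younger ages, one higher and the other lower in the knockout. Krt20 in 4 week granulosa cells ranged from 0 to 0.889 CPM in wild type, with a median of 0 and 10 counts over 7 libraries. In the knockout it ranged from 5.66 to 18.7 CPM, with a median of 9.52 and 258 counts. Every knockout library lay above every wild type one, and the log2 difference was 4.43 ± 0.62 (SE). At 7 weeks the wild type values were 0, 0.226, 0, 0.314 and 0.582 CPM (5 counts in all), and the knockout values 4.20, 1.75, 1.26, 2.82 and 6.26 CPM (48 counts). The 2 groups again did not overlap, but the gene was below the filter on low counts. Fitted without a filter its log2 difference was 3.35 ± 0.91 and did not pass an adjusted p of 0.05 (edgeR), and with DESeq2 it was 3.43 ± 0.98 and passed. At 6 months Krt20 was between 0 and 3.40 CPM in wild type, with a count in 5 of 12 libraries, and between 0.585 and 7.16 CPM in the knockout, with a count in 6 of 6. These ranges overlapped.

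Tspan8 in 4 week granulosa cells was between 3.69 and 8.66 CPM in wild type (median 7.20) and between 0 and 1.42 CPM in the knockout (median 1.22). All knockout libraries lay below all wild type ones, and the log2 difference was -2.94 ± 0.53. At 7 weeks the wild type libraries gave 8.54, 17.0, 14.1, 13.5 and 25.4 CPM and the knockout libraries 1.40, 2.62, 1.67, 1.25 and 0.853 CPM, a log2 difference of -3.52 ± 0.45. The groups were again apart. At 6 months Tspan8 reached 30.1 CPM in wild type and 31.0 CPM in the knockout, with medians of 6.12 and 10.0, and the ranges overlapped (log2 difference 0.56 ± 0.57, and -0.07 without knockout replicate 3). Whether the genotype difference of Tspan8 itself changed with age was not tested.

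Krt8, the type II chain, was between 122 and 284 CPM in 4 week wild type granulosa cells (median 221) and between 84.9 and 197 CPM in the knockout (median 117). The groups overlapped, although the wild type median was above 7 of 7 knockout values, and the log2 difference was -0.92 ± 0.25. At 7 weeks Krt8 was 313, 557, 384, 444 and 245 CPM in wild type and 71.4, 124, 129, 171 and 136 CPM in the knockout. Here no knockout library reached the lowest wild type one, and the log2 difference was -1.71 ± 0.30. At 6 months the wild type range of 254 to 528 CPM held most knockout libraries, whose values were 255, 233, 301, 388, 290 and 273 CPM (log2 difference -0.26 ± 0.17).

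Krt18, the type I partner of Krt8, had a 4 week difference near 0: it was between 69.9 and 238 CPM in wild type and between 87.1 and 410 CPM in the knockout, a log2 difference of 0.02 ± 0.32. At 7 weeks it was 349, 765, 400, 478 and 313 CPM in wild type and 65.8, 93.4, 133, 167 and 167 CPM in the knockout, a log2 difference of -1.98 ± 0.34 with no overlap. At 6 months the medians were 225 CPM in wild type and 384 CPM in the knockout (0.53 ± 0.33). The ratio of Krt18 to Krt8 counts within a library sets the pair side by side without scaling between libraries. It was between 0.575 and 1.02 in 4 week wild type libraries (median 0.742) and between 1.01 and 2.09 in 4 week knockout libraries (median 1.42). At 7 weeks the ratio had medians of 1.11 in wild type and 0.972 in the knockout, so there both chains differed to a like degree. At 6 months the wild type ratios spanned 0.386 to 1.18 and those of the knockout 0.463 to 1.68.

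Krt8 counts carry an uncertainty, because a processed pseudogene, Krt8-ps (chr7:23357125-23358069), has a row of its own and reads of near-identical copies can be split between them. The pseudogene held a median of between 4.33% and 15.5% of the joint counts, depending on the group, with the lowest share in 7 week knockout granulosa cells. The sum of both rows had a wild type median of 256 CPM beside 136 CPM in the knockout at 4 weeks, 456 beside 135 CPM at 7 weeks, and 428 beside 335 CPM at 6 months. At 7 weeks the sums were between 270 and 657 CPM in wild type and between 74.2 and 201 CPM in the knockout, so these groups stayed apart when the pseudogene was added.

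Krt7 and Krt19, a type II and a type I chain, varied more between libraries of a group than between genotypes. Krt19 was between 16.0 and 63.6 CPM in 4 week wild type granulosa cells and between 13.5 and 232 CPM in the knockout (0.54 ± 0.53). At 7 weeks Krt19 was 128, 422, 38.2, 122 and 6.78 CPM in wild type and 1.40, 66.3, 29.3, 39.7 and 82.5 CPM in the knockout (-1.84 ± 0.94). At 6 months the wild type libraries spanned 11.5 to 268 CPM and the knockout libraries 0.967 to 226 CPM (0.82 ± 0.74). The 2 genotypes overlapped at every age. The median of Krt7 was 6.12 CPM in wild type beside 4.40 CPM in the knockout at 4 weeks, 14.3 beside 5.44 CPM at 7 weeks and 6.78 beside 31.8 CPM at 6 months. Its log2 differences were 0.07 ± 0.62, -2.25 ± 0.78 and 1.80 ± 0.64, and its ranges also overlapped at every age.

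The uroplakins and mesothelin, cell surface proteins of urothelium and mesothelium, were low at 4 weeks, where all 3 were under the filter on low counts and medians lay between 0.490 and 2.25 CPM over both genotypes. At 7 weeks their ranges overlapped: Upk3b was between 0 and 12.4 CPM in wild type and between 0 and 31.6 CPM in the knockout, Upk1b between 0.582 and 6.56 CPM and between 0 and 5.24 CPM, and Msln between 0.388 and 28.1 CPM and between 0 and 16.8 CPM. At 6 months Msln was between 0 and 5.40 CPM in wild type (median 1.76) and 0.645, 0.524, 28.5, 21.98, 5.38 and 7.42 CPM in the knockout, a log2 difference of 2.46 ± 0.76. Upk1b was between 0 and 4.53 CPM in wild type (median 2.35) and 1.61, 1.57, 17.4, 10.2, 3.36 and 10.7 CPM in the knockout (1.58 ± 0.46). Upk3b, not tested there, was between 0 and 4.22 CPM in wild type and 0, 0, 41.9, 10.7, 5.38 and 10.7 CPM in the knockout. For all 3 genes the first 2 knockout libraries lay within the wild type range and the libraries above that range were among the other 4.

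**Figure D2:**
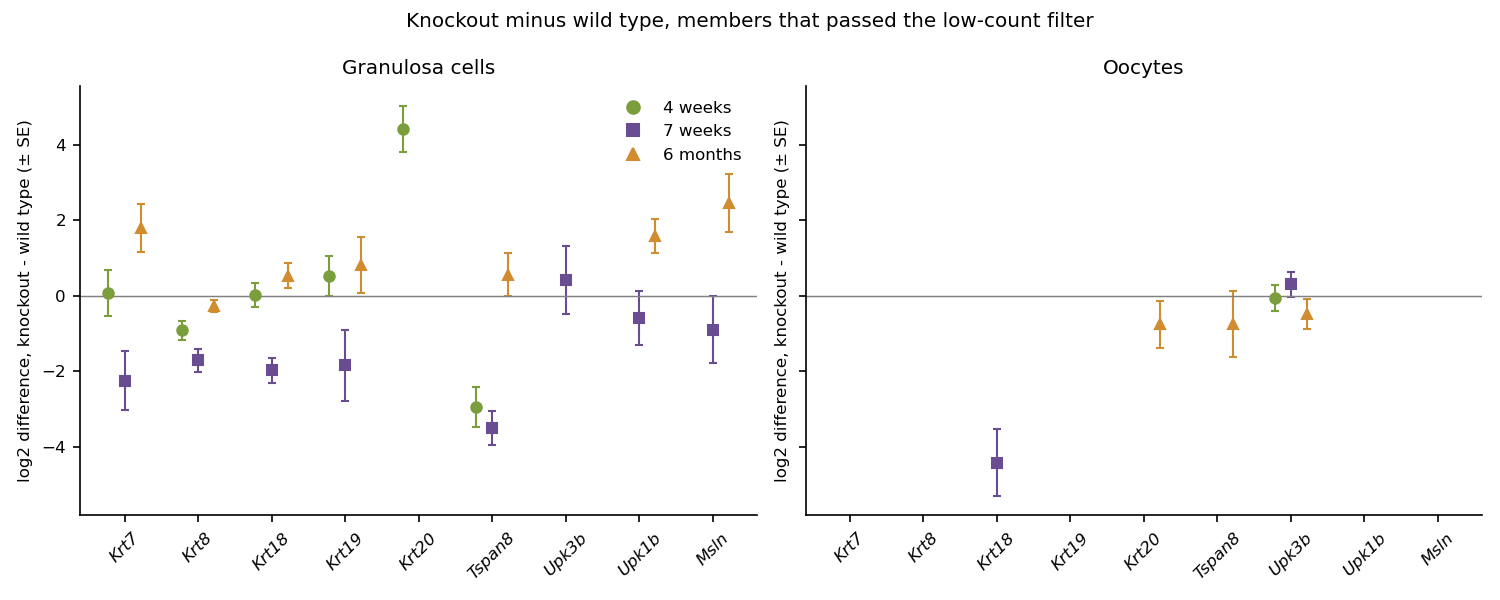
Log2 difference of knockout minus wild type (y axis) with its standard error for each member that passed the filter on low counts, by age, in granulosa cells (left) and oocytes (right). In granulosa cells Krt20 lies at 4.43 at 4 weeks, Tspan8 below -2.9 at 4 and 7 weeks, and most other members below 0 at 7 weeks and above 0 at 6 months.

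Read against all genes, the counts of members past an adjusted p of 0.05 (edgeR quasi-likelihood test) in these granulosa contrasts restate how the members were chosen. At 4 weeks 2 of 6 members tested passed, Krt20 higher and Tspan8 lower, with 2.33% of all genes tested past the threshold. At 7 weeks 3 of 8 passed, Krt8, Krt18 and Tspan8, all lower, with 0.8% of all genes. At 6 months 2 of 7 passed, Upk1b and Msln, both higher, with 12.6% of all genes. Without 1 of the libraries the 7 week count was between 1 and 3 and the 6 month count between 0 and 4. The 7 week count fell to Tspan8 alone without knockout replicate 3. At 6 months it rose to 4 (Krt7, Upk3b, Upk1b and Msln) without knockout replicate 1 or 2, fell to 0 without knockout replicate 3 or 6, and to Upk1b alone without knockout replicate 4 or 5 or wild type replicate 3, 6 or 8.

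The 6 month knockout granulosa libraries fell into 2 sets in Krt7, Krt18, Krt19, Upk3b, Upk1b and Msln. In replicates 1 and 2 Krt7 was 0.967 and 0.524 CPM, Krt19 0.967 and 9.43 CPM and Krt18 118 and 112 CPM. In replicates 3 to 6 Krt7 was between 28.9 and 55.0 CPM, Krt19 between 88.8 and 226 CPM and Krt18 between 311 and 506 CPM. Krt8 differed little between the sets, at 255 and 233 CPM in the first 2 and between 273 and 388 CPM in the other 4. Tspan8 was 0.967 and 3.67 CPM against 4.71 to 31.0 CPM. Krt20 did not follow the split, at 1.61 and 0.785 CPM against 0.585 to 7.16 CPM. Epcam, an epithelial adhesion molecule, was 1.61 and 1.57 CPM against 17.4 to 62.6 CPM, Cldn3, a tight junction protein, 3.55 and 4.98 CPM against 37.0 to 85.8 CPM, and Ovgp1, the oviduct-specific glycoprotein, 21.8 and 132 CPM against 895 to 4315 CPM. The 8 oviduct genes listed summed to 97.6 and 182 CPM in replicates 1 and 2 and to between 1133 and 4520 CPM in the other 4, against 125 to 1323 CPM in wild type. Aldh1a1, on the list of 13 other surface epithelium genes, did not split, at 131 and 157 CPM against 95.1 to 192 CPM. Inha, which encodes the inhibin alpha subunit of granulosa cells, split the opposite way, at 3665 and 4061 CPM against 1021 to 2497 CPM. The part of epithelial RNA from outside the follicle in the 6 month differences was not tested. In these bulk libraries fewer cells of a type and less RNA per cell cannot be told apart.

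Single libraries of other groups stood out in the same genes. Among the 12 wild type libraries at 6 months, replicate 11 had the highest Krt7 (21.2 CPM), Krt18 (523 CPM) and Krt19 (268 CPM). Replicate 6 there had the highest Epcam (21.3 CPM) and Ovgp1 (1203 CPM), beside 19.6 and 984 CPM in replicate 11. Knockout replicate 2 at 4 weeks had the highest Krt7 (29.7 CPM), Krt18 (410 CPM), Krt19 (232 CPM), Epcam (95.6 CPM) and Ovgp1 (4957 CPM) of its group, while its Krt20 (7.58 CPM) and Tspan8 (1.32 CPM) lay within the range of the other 6. Wild type replicate 2 at 7 weeks had the highest Krt7 (55.6 CPM), Krt8 (557 CPM), Krt18 (765 CPM), Krt19 (422 CPM), Epcam (115 CPM) and Ovgp1 (6520 CPM). Wild type replicate 5 at 7 weeks had the lowest Krt7 (0.969 CPM), Krt19 (6.78 CPM) and Epcam (1.75 CPM), yet the highest Tspan8 (25.4 CPM) and a Krt18 of 313 CPM, above every knockout library of that age. At 4 and 7 weeks the genotype ranges of Tspan8 and Krt20 did not overlap. These contrasts were used to choose the members, so no relation to Krt19 can be read from that separation. The share of all genes whose ranges did not overlap was not computed. At 6 months the ranges of both genes overlapped.

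**Figure D3:**
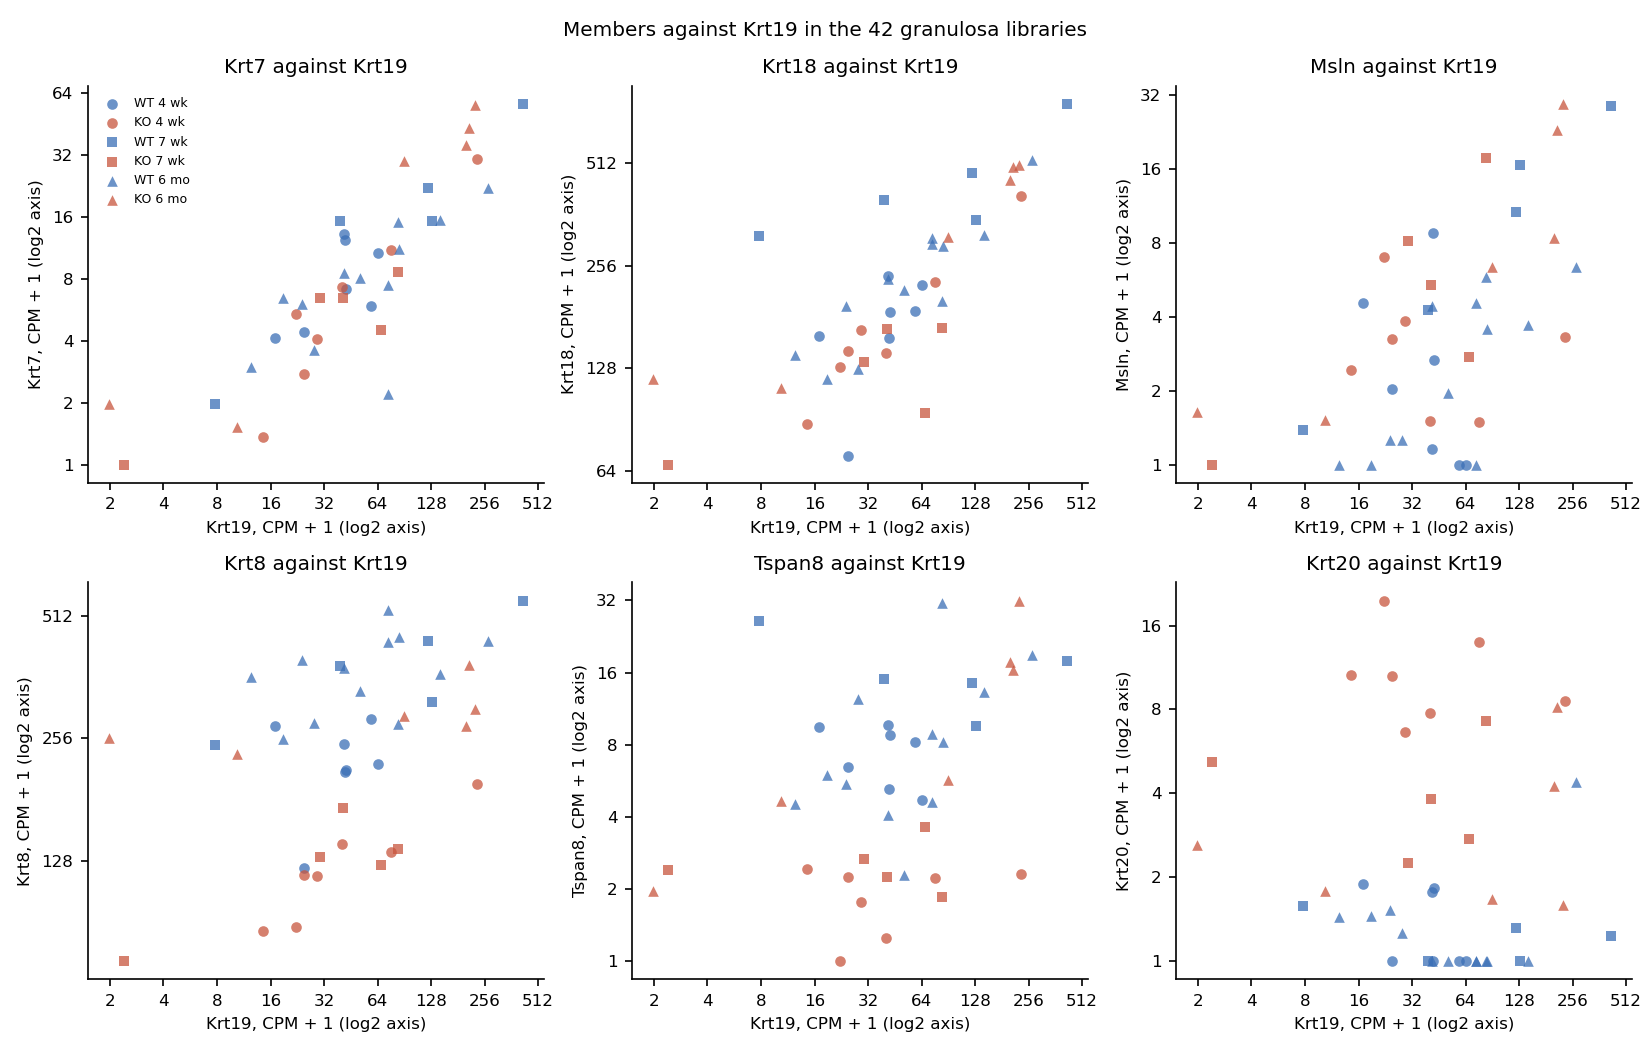
Each of 6 members (y axis) against Krt19 (x axis) in the 42 granulosa libraries, both as CPM + 1 on log2 axes, with colour for genotype and shape for age. Krt7 and Krt18 rise with Krt19 over the 42 libraries together (r of 0.89 and 0.84 for deviations from the group mean), but not in every library. In 7 week knockout replicate 2 Krt19 is 66.3 CPM, with Krt7 at 3.49 and Krt18 at 93.4 CPM. In replicate 3 of that group they are 29.3, 5.44 and 133 CPM. The 4 and 7 week knockout points lie low in Tspan8 and high in Krt20, whose genotype ranges do not overlap at these ages.

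Over the 42 granulosa libraries the members varied together to different degrees, in a gradient with Krt20 lowest, at or below 0.22 with every other member. Deviations of log2(CPM + 1) from the group mean were correlated between members as a description. The points share library and depth, and the 6 month knockout group holds 2 sets of libraries. Krt7, Krt18, Krt19, Upk3b, Upk1b and Msln, a set picked from these same values, had Pearson's r between 0.42 and 0.89 over their 15 pairs. The highest values were those of Krt7 with Krt19 (0.89), Upk3b with Msln (0.86) and Krt18 with Krt19 (0.84). Krt8 went with its partner Krt18 (0.77) and Krt19 (0.62) and less with Msln (0.37) and Upk1b (0.36). Tspan8 had r between 0.09 and 0.46 with the other 8 members, and Krt20 between 0.04 and 0.22. Krt20 had a count in 29 of 42 granulosa libraries and a median of 0.629 CPM, so its values rest on few reads. Counting error alone can keep its r low. Upk3b was also low, with a count in 30 of 42 libraries and a median of 1.35 CPM.

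Against epithelial genes that are not members the values also formed a gradient. Krt19 had an r of 0.85 with Epcam, 0.82 with Cldn3 and 0.88 with Ovgp1, and Krt7 of 0.81, 0.82 and 0.81. Krt18 had values of 0.68, 0.78 and 0.69, Upk3b of 0.64, 0.69 and 0.65, Msln of 0.55, 0.62 and 0.56 and Upk1b of 0.55, 0.50 and 0.57. Krt8 was near Upk1b, at 0.48, 0.50 and 0.46, and so was Tspan8, at 0.36, 0.53 and 0.42. Krt20 was lowest, at 0.04, 0.20 and 0.12. Aldh1a1 followed none of the 9, with r between -0.14 and 0.21. The genes most like each member among 11121 with at least 5 CPM were Cbs (0.89), Krt19 and Alox12e (0.88) for Krt7, and Krt19 (0.84), Krt7 and Cbs (both 0.81) for Krt18. For Krt19 they were Cbs (0.96), Alox12e (0.93) and Ppp2r2b (0.92). For Krt8 they were Krt8-ps (0.81), Krt18 (0.77) and Gsn (0.75), and for Tspan8 Tfcp2l1 (0.71), Nfib (0.65) and Zbtb8os (0.64).

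**Figure D4:**
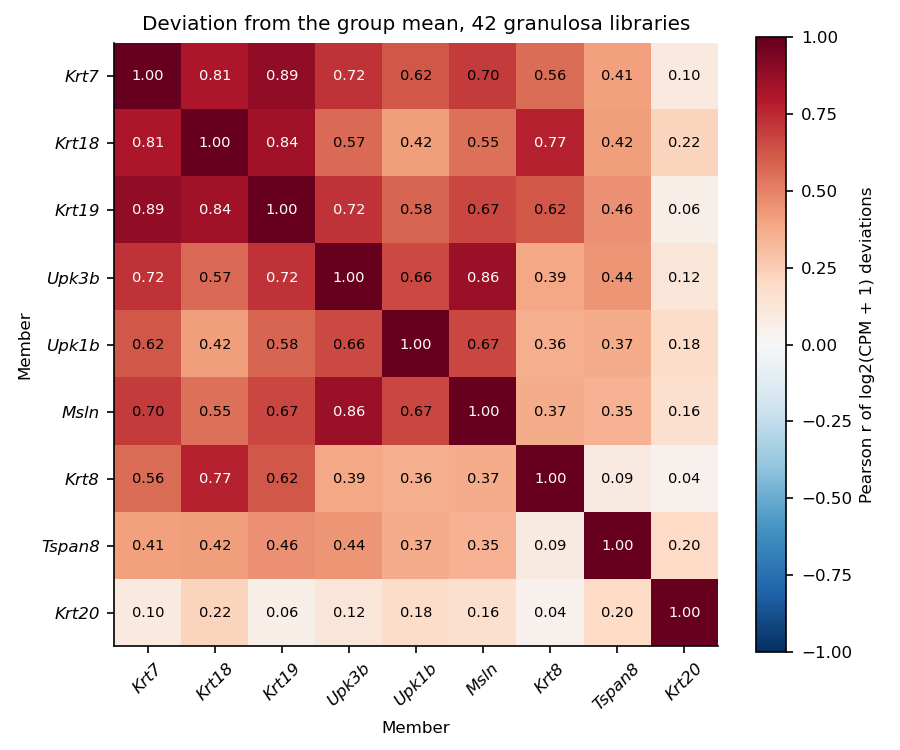
Pearson's r between members (both axes) of log2(CPM + 1) deviations from the group mean over 42 granulosa libraries, with red for positive values. Krt7, Krt18, Krt19, Upk3b, Upk1b and Msln form a block of values from 0.42 to 0.89. Krt8 overlaps it, at 0.36 to 0.77 with these 6, and the row of Krt20, a gene with a median of 0.629 CPM here, stays at or below 0.22.

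Within single groups of at least 6 libraries, 34 relations were tested by permutation, between Krt8 and Krt18 or Krt19, and between each of Krt8, Krt18, Krt19 and Tspan8 and the sum of those of the 13 other surface epithelium genes that had a row (11 in 4 week and 12 in 6 month granulosa cells, 9 or 10 in oocytes). With adjustment over the 34, 2 passed for Pearson's r and none for Spearman's rho. Krt8 rose with Krt19 in 4 week knockout granulosa cells (n = 7, r = 0.926, exact permutation p = 0.00238, adjusted 0.0466, rho = 0.929, exact p = 0.00675, adjusted 0.115). Without the 2 libraries farthest from the median, r was 0.719. Krt19 rose with the surface epithelium sum in 6 month wild type granulosa cells (n = 12, r = 0.786, permutation p = 0.00274, adjusted 0.0466, rho = 0.622, p = 0.0343, adjusted 0.233), with r at 0.600 without the 2 farthest. Krt8 and Krt18 had r = 0.745 in that group (n = 12, permutation p = 0.00554, adjusted 0.0628, rho = 0.713, p = 0.0117, adjusted 0.133), and 0.689 without the 2 farthest. In 4 week wild type cells their r of 0.829 (n = 7, exact permutation p = 0.151, adjusted 0.274, rho = 0.607, p = 0.167, adjusted 0.332) rested on 2 libraries, since it was -0.04 without them. The smallest p for rho was that of Krt8 with the surface epithelium sum in 4 week wild type oocytes, a negative relation (n = 12, rho = -0.808, permutation p = 0.00252, adjusted 0.0857). The median of that sum was 404.5 CPM in this oocyte group beside 40.96 CPM in 4 week wild type granulosa cells. Cdh1 alone was between 69.6 and 236 CPM in these oocyte libraries, so the sum there cannot be read as a measure of surface epithelium. No pooled value is given for the 6 month knockout group.

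Other genes of these families were read for the same contrasts. Over all genes 2.33%, 0.8% and 12.6% passed at 4 weeks, 7 weeks and 6 months (edgeR, adjusted p under 0.05). Of the 13 other surface epithelium genes 3 were tested at 4 weeks, where Aldh1a1, a retinal dehydrogenase, was higher (2.72 ± 0.34, adjusted p = 5.73e-05 by the edgeR test) and Epcam (1.15 ± 0.73) and Cdh1 (0.68 ± 0.76) did not pass. At 7 weeks 6 were tested, of which Aldh1a1 was higher (1.51 ± 0.31, adjusted p = 0.0370, edgeR) and Lgr5, a Wnt pathway receptor of surface epithelium stem cells, lower (-3.84 ± 0.62, adjusted p = 0.0103). At 6 months Aldh1a1 (3.13 ± 0.37, adjusted p = 4.82e-05, edgeR) and Aldh1a2 (1.83 ± 0.61, adjusted p = 0.0481) were higher and Lgr5 lower (-2.37 ± 0.76, adjusted p = 0.0428), of 6 tested. The median log2 difference of the tested genes of this list was 1.15, -1.40 and 1.64 at the 3 ages, beside -0.02, 0.01 and -0.02 over all genes. So Aldh1a1 was higher at each age, whereas Krt7 and Krt19 had differences of both signs.

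Of the 20 keratin partners listed, which are other keratins, desmosome and linker proteins, 10 were tested at each age and none passed. The shares of all genes to set beside this and the counts below were 2.33% at 4 weeks, 0.8% at 7 weeks and 12.6% at 6 months. Of 26 other tetraspanins and uroplakins none of 20 passed at 4 weeks, Cd9 alone of 18 at 7 weeks (-1.76 ± 0.34, adjusted p = 0.0262, edgeR), and 5 of 20 at 6 months, all higher. Those 5 included Upk1a, the sister gene of Upk1b (2.51 ± 0.74, adjusted p = 0.0370, edgeR), Tspan4 (1.02 ± 0.19, adjusted p = 0.00126), Cd81 (1.01 ± 0.21, adjusted p = 0.00349) and Cd82 (0.90 ± 0.20, adjusted p = 0.00539). Of the oviduct list none of 5 and none of 6 passed at 4 and 7 weeks, and Cldn3 (2.08 ± 0.61, adjusted p = 0.0347, edgeR) and Muc1 (1.31 ± 0.43, adjusted p = 0.0467) of 6 at 6 months, both higher. The median log2 difference of the tested oviduct genes was 0.30, -2.08 and 1.25 at the 3 ages, beside -0.02, 0.01 and -0.02 over all genes. At 7 weeks the 8 listed genes summed to a median of 1053 CPM in wild type (82.5 to 6788) and 277 CPM in the knockout (33.6 to 1517). Of the immune list 2 of 7 genes were lower in the knockout at 4 weeks, none of 7 passed at 7 weeks and Cd52 alone of 8 was lower at 6 months, and of the erythroid list 2 of 2, none of 4 and 1 of 5 (Alas2) did the same. At 6 months Dcn, of the theca and stroma list, and Gdf9, of the oocyte list, were higher, and of 13 granulosa genes Fshr, Amhr2 and Inhba were higher and Fst lower. The part of these cell types in the member values was not tested.

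In oocytes most members were at or near 0. Krt19, Upk1b and Msln had no row at any age, Krt7 had one at 6 months only and Krt18 at 7 weeks only. The rows kept in each table held a count in at least 26% to 30% of its libraries, so a gene without a row may have been too rarely detected, and its level is not known. Upk3b stood apart: it had counts in all 51 oocyte libraries, between 2.53 and 25.0 CPM, and group medians between 6.41 and 10.0 CPM. The order of its medians ran from 7 week wild type (10.0), 7 week knockout (9.18), 4 week wild type (8.26), 6 month wild type (8.26) and 4 week knockout (7.65) to 6 month knockout (6.41), and the ranges of all neighbours in that order overlapped. In granulosa cells only 30 of 42 libraries had a count of it. Upk3b lies 49871 bases from Zp3, a zona pellucida gene of the oocyte, on chromosome 5.

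Krt18 in 7 week wild type oocytes was 2.19, 89.1, 0, 4.61 and 9.41 CPM, and in the 12 knockout libraries between 0 and 2.79 CPM (median 0.309). The wild type library at 89.1 CPM, replicate 2, set most of the difference of -4.42 ± 0.88, and the groups overlapped through the wild type library at 0. Of 2 members tested Krt18 passed, with 0.154% of all genes past the threshold in this contrast, which was used to choose it. Without wild type replicate 2, 4 or 5 no member passed, and with pairs of libraries as a block Krt18 was below the filter and none passed. Krt8 in the same wild type libraries was 8.34, 40.8, 0, 0 and 3.46 CPM, with the same replicate highest, and between 0 and 1.59 CPM in the knockout. Upk3b there was 14.1, 3.98, 10.0, 3.61 and 12.1 CPM in wild type and between 5.95 and 15.4 CPM in the knockout (0.30 ± 0.33), so its lower values included the library richest in keratin.

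Krt8 reached 5 CPM in 6 of 51 oocyte libraries, all of them wild type: 4 week replicate 11 (35.9 CPM), 7 week replicates 2 (40.8 CPM) and 1 (8.34 CPM), and 6 month replicates 7 (26.7 CPM), 2 (9.04 CPM) and 6 (5.76 CPM). Inha was between 2.26 and 299 CPM in these 6 (median 49.1) and between 0 and 65.9 CPM in the other 45 (median 0.617). In granulosa libraries Inha was between 530.5 and 4572 CPM. The 6 granulosa genes with a row in all tables summed to 378 CPM in 7 week wild type replicate 2 and 272 CPM in 4 week replicate 11, the highest values of their groups. The part of granulosa RNA in the oocyte keratin values was not tested.

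At 4 weeks and 6 months the oocyte contrasts were not used to choose the members, and no member differed between genotypes beyond the spread of the libraries. At 4 weeks Upk3b alone was tested (-0.05 ± 0.34, adjusted p = 0.998, edgeR), with ranges of 3.70 to 15.6 CPM in 12 wild type and 3.30 to 25.0 CPM in 7 knockout libraries. Over all genes 0.00924% passed, which was Esr2 alone. At 6 months none of 3 members passed, with 0.00818% of all genes: Krt20 (-0.76 ± 0.61), Tspan8 (-0.75 ± 0.87) and Upk3b (-0.48 ± 0.40), each with an adjusted p of 0.999 (edgeR). Krt20 was between 0.340 and 4.65 CPM in 11 wild type and 1.43, 1.51, 1.18 and 1.94 CPM in 4 knockout libraries there. Its knockout values lay inside the wild type range. None of these member tests had an unadjusted p under 0.05, and DESeq2 also called none.

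Wild type granulosa cells and oocytes were set side by side for the 4 members with a row in all 6 tables, where cell type and table cannot be told apart. These genes passed the filter of the joined fit partly through the cell type in which they were high (Krt8 passed it in no oocyte table), so their differences are given as descriptions without a test. Krt8 was higher in granulosa cells by 5.44 ± 0.72 on the log2 scale at 4 weeks, 4.99 ± 1.03 at 7 weeks and 6.23 ± 0.74 at 6 months. Tspan8 was higher too, by 2.57 ± 0.55, 3.45 ± 0.77 and 1.74 ± 0.48. Upk3b had differences of -2.62 ± 0.70, -0.44 ± 0.79 and -3.25 ± 0.58, and Krt20 of -2.04 ± 0.68, -1.75 ± 0.92 and -2.90 ± 0.53. Krt20 thus leaned towards oocytes at each age, and Upk3b at 4 weeks and 6 months. At 7 weeks the difference of Upk3b was within its standard error, with medians of 11.4 CPM in granulosa cells and 10.0 CPM in oocytes. Over all genes 81.1%, 74.4% and 83.6% passed an adjusted p of 0.05 at the 3 ages (edgeR). Whether the difference of Upk3b changed with age was not tested.

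Between wild type ages few members differed, and these contrasts share the wild type libraries with those that chose the members. In the joined fit none of 4 passed in granulosa cells between 4 and 7 weeks (0.0773% of all genes) or between 4 weeks and 6 months (5.12%). Between 7 weeks and 6 months Upk3b fell by 2.60 ± 0.68 on the log2 scale (adjusted p = 0.0169, edgeR), with 2.16% of all genes. That call was lost without 7 week replicate 2 (adjusted p = 0.136) or 4 (0.107), and with the granulosa tables alone (-2.61 ± 0.95, adjusted p = 0.180), where all 9 members could be tested. In that fit Krt8 rose by 0.81 ± 0.20 between 4 weeks and 6 months (adjusted p = 0.00872, edgeR), with 8.0% of all genes past the threshold. The other 8 members did not pass at any age, with 1.36% of all genes between 7 weeks and 6 months and none between 4 and 7 weeks.

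In wild type oocytes none of the 4 passed between 4 and 7 weeks (5.16% of all genes) or 4 weeks and 6 months (15.7%), while Krt20 was higher at 6 months than at 7 weeks (1.86 ± 0.69, adjusted p = 0.0340, edgeR), with 27.7% of all genes. Krt20 was 0, 0.498, 1.71, 1.00 and 0.768 CPM at 7 weeks and between 0.340 and 4.65 CPM at 6 months (median 2.63), so the ranges overlapped. Without 7 week replicate 1, 2 or 5 it did not pass (adjusted p of 0.110, 0.0804 and 0.0588).

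Ordered by group median, Krt8 was highest in 7 week and 6 month wild type granulosa cells (384 and 374 CPM) and lowest there in 4 week knockout cells (117 CPM), and every granulosa library, from 71.4 CPM up, lay above every oocyte library, up to 40.8 CPM. Every member had a higher median in 7 week than in 4 week wild type granulosa cells, Krt20 only at 0.226 beside 0 CPM. For Krt18 the ranges at these ages did not overlap (313 to 764.5 CPM at 7 weeks, 69.9 to 238 CPM at 4 weeks, log2 difference 1.41 ± 0.37 with the granulosa tables only, adjusted p = 0.341, edgeR). For the other members the ranges at 4 and 7 weeks overlapped. Krt20 had its highest median in 4 week knockout granulosa cells (9.52 CPM), followed by 7 week knockout granulosa cells (2.82 CPM) and 6 month wild type oocytes (2.63 CPM).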

How the data were processed

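RNA of 42 granulosa and 51 oocyte libraries was measured by Smart-seq2, per the labels. STAR, Partek, DESeq2 and mm10 are named without versions, per the submitters' processing notes, and the gene annotation and the strand setting are not given in the sources used here. The deposited tables hold expected counts, which are estimates of reads for each gene before any normalisation by the authors, and they were rounded here before testing. No 2 libraries held identical values, and 1 knockout oocyte library at 7 weeks has a column without a sample number of its own, so it may not be a sample apart from the other 11. The members, the gene lists and the tests were chosen with earlier results of these data known.

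CPM were computed over each library's total. Tests used edgeR 4.0.16 (quasi-likelihood) in R 4.3.3 (filterByExpr, TMM scaling, robust dispersion), 1 fit per table for genotype and 1 fit of all 6 tables, joined by gene, for wild type granulosa cells against oocytes and wild type ages. P-values were adjusted over all genes tested by the Benjamini-Hochberg method, with a threshold of 0.05. The labels name no animals, litters or batches, so each p-value reflects only how libraries of a group scatter, which may be technical. On simulated 7 week granulosa counts for 12002 genes, this test recovered 55% of genes changed by 1.5 on the log2 scale and 93% of those changed by 3. The main fits took no libraries as pairs. In an alternative fit of each comparison, the replicate block, libraries with the same number were taken as pairs. In 7 week oocytes the residuals of all 4 shared numbers correlated above 0.1 (0.543, 0.118, 0.154 and 0.243), a hint of pairing from the data and not from the labels. Alternatives were other scalings, no filter, DESeq2 1.42.0, a replicate block and leaving out libraries, plus joins or omissions chosen after seeing the data (granulosa tables only, and the 2 shallowest libraries left out). Named genes were all members, Esr2, up to 4 genes of smallest p per list described, and the 3 genes most like each member whose granulosa mean reached 5 CPM. Inha, and Epcam, Cdh1, Cldn3 and Ovgp1 by library, were added after their values were seen. Positions are those of GENCODE vM21 on GRCm38, and upstream sequences those of RefSeq on GRCm38.p6.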

Additional observations from a re-analysis of the deposited data

Results flagged for a closer look

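Among 55 member values by group that could be checked (groups of 4 to 10 libraries), 10 held a library far from the nearest other. In granulosa cells these were Upk3b at 12.7 CPM in wild type replicate 3 at 4 weeks (next 3.90 CPM), and in the 4 week knockout Krt7 at 29.7 CPM and Krt19 at 232.0 CPM in replicate 2 (next 10.0 and 75.4 CPM), Upk3b at 4.76 CPM in replicate 4 (next 1.37 CPM) and Msln at 6.04 CPM in replicate 3 (next 2.83 CPM). Upk3b was 41.9 CPM in knockout replicate 3 at 6 months (next 10.7 CPM). A chance rate of about 1 in 20 groups holds only for normally distributed values. CPM of these members are skewed, many rest on few counts, and the 55 values share libraries. The number expected by chance is therefore not known, and the 10 are listed as descriptions.

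In oocytes Krt8 was 2.68 CPM in 4 week knockout replicate 7 (next 0.501 CPM) and Upk3b was 25.0 CPM in 4 week knockout replicate 4 (next 10.4 CPM). Wild type replicate 2 at 7 weeks was far from the others in both chains of the simple epithelial pair, with Krt8 at 40.8 CPM (next 8.34 CPM) and Krt18 at 89.1 CPM (next 9.41 CPM).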

How the results depend on the processing

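Of 78 member differences 12, none of them past the threshold, changed sign under at least 1 alternative. Without knockout replicate 2 at 4 weeks, Krt7 was -0.75, Krt18 -0.29 and Krt19 -0.31. Without 1 library of the 7 week table, Upk3b was -0.56 (knockout replicate 5) and Msln 0.0025 (wild type replicate 2). Without 7 week wild type oocyte replicate 2, Krt8 was 0.74 from 7 weeks to 6 months and -0.715 from 4 to 7 weeks. Of the counts of members past the threshold, those for knockout granulosa cells at 4 weeks and for knockout oocytes at 4 weeks and 6 months stayed within 1.5 times. In 7 week granulosa cells the count of 3 ranged from 1 to 3 without single libraries, and was 2 without the 2 shallowest. At 6 months the count of 2 was 0 with a replicate block and ranged from 0 to 4 without single libraries. In 7 week oocytes the count of 1 was 2 with DESeq2 (Krt18 and Krt8), 0 with the replicate block and from 0 to 1 without single libraries. Between wild type ages, the count in granulosa cells from 7 weeks to 6 months was 1, 0 with the granulosa tables only and from 0 to 1 without single libraries, and from 4 weeks to 6 months it was 0, and 1 with the granulosa tables only. In oocytes from 7 weeks to 6 months it was 1, 0 with the library total as scale, 0 with the replicate block and from 0 to 1 without single libraries, and from 4 weeks to 6 months it was 0, and 2 with DESeq2 (Krt20 and Tspan8). The cause of these changes was not tested, beyond the smaller numbers of libraries or genes tested.

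Counts over all genes moved further. DESeq2 called 546 genes in place of 283 in 4 week granulosa cells, 559 in place of 96 at 7 weeks, 248 in place of 18 in 7 week oocytes, 42 in place of 9 for wild type granulosa cells from 4 to 7 weeks and 1400 in place of 601 for the same ages in oocytes. In 7 week oocytes the library total and no filter each called 30. For granulosa cells from 4 to 7 weeks DESeq2's size factors called 3 and the library total 2. The granulosa tables only called 0 there, and 1144 in place of 596 from 4 weeks to 6 months. The replicate block called 645 in place of 1580 in 6 month granulosa cells, 38 in 7 week oocytes, 0, 89 and 22 for the wild type granulosa ages (in place of 9, 252 and 596) and 0 and 46 for oocytes from 4 to 7 weeks and from 7 weeks to 6 months (in place of 601 and 3226). Without single libraries the count was between 36 and 209 in 7 week granulosa cells, 926 and 2057 in 6 month granulosa cells, 2 and 61 in 7 week oocytes, 3 and 14 for wild type granulosa cells from 4 to 7 weeks, 137 and 267 from 7 weeks to 6 months, and 15 and 1034 and 1850 and 3339 for the same ages in oocytes, so the shares printed beside the members move with single libraries. Of the shared numbers 4 of 5 in 7 week granulosa cells had residual correlations above 0.1, with the other at -0.197, and in the other knockout comparisons at most 2 did, apart from 7 week oocytes, where all did. Pairing was not checked between ages. With TMM-scaled totals 1 more relation passed, Krt8 with the surface epithelium sum in 4 week wild type oocytes (r = -0.644, adjusted p = 0.0479 by permutation). In oocytes that sum cannot be read as a measure of surface epithelium, as said above. Counts near 1 CPM, as for Krt20 in wild type granulosa cells, rest on few reads.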

Other observations

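Beside the members, keratin partners and tetraspanins were compared between wild type granulosa cells and oocytes, where 81.1%, 74.4% and 83.6% of all genes passed at 4 weeks, 7 weeks and 6 months (edgeR, adjusted p under 0.05). As with the members, a gene can pass the filter of the joined fit through the cell type in which it is high. The counts and differences below are therefore descriptions without a test. Of 8 keratin partners tested 4 were higher in granulosa cells at each age and 1, 1 and 2 lower, a share at or below that of all genes. Those higher were the 4 of smallest p: Plec, a cytolinker, by 6.47 ± 0.47, 5.48 ± 0.67 and 5.85 ± 0.46 on the log2 scale at 4 weeks, 7 weeks and 6 months, Vim, the mesenchymal intermediate filament, by 7.32 ± 0.78, 6.51 ± 1.13 and 7.14 ± 0.77, and the desmosome genes Dsp, by 3.74 ± 0.41, 4.13 ± 0.61 and 4.76 ± 0.42, and Pkp2, by 3.91 ± 0.45, 2.58 ± 0.60 and 3.13 ± 0.41. Of 17 other tetraspanins and uroplakins tested 10 were higher and 5 lower in granulosa cells at each age, which is near the share of all genes. Cd9 was higher by 3.42 ± 0.22, 4.41 ± 0.34 and 2.88 ± 0.21, and Tspan9 lower, at -3.09 ± 0.22, -3.35 ± 0.28 and -2.55 ± 0.17. Upk1a, named after its values were seen, was higher in granulosa cells by 3.42 ± 0.73, 5.49 ± 1.06 and 3.36 ± 0.66. Over all genes the median difference was 0.24 at 4 weeks and 0.25 at 7 weeks and 6 months, and cell type and table cannot be told apart.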
